A study of Homo sapiens with 62 samples.

Results

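The genes described here are those whose newly made RNA was lower after degradation of the transcription factor KLF5 in both of 2 human pancreatic ductal adenocarcinoma (PDAC) lines, AsPC-1 and T3M-4. They were chosen by the dTAG and NEG libraries themselves: the mean of log2(T>C CPM + 1) had to be lower by at least 0.5 in dTAG than in NEG libraries in each line, and the mean NEG level had to be at least 5 CPM in each line. T>C CPM are the reads of a gene that carry T>C conversions, relative to all such reads of the library (CPM, the usual depth-scaled unit) and scaled by the TMM method over all libraries of the line. Of 29794 genes in the tables, 8429 reached 5 CPM in both lines and 228 of these passed both limits. Keratin, mucin, SERPINB, S100 and kallikrein genes and ELF3, FA2H and A4GALT were left out by the rule, which took away 10 of the 228 (KRT8, KRT18, KRT19, MUC1, KLK10, S100A4, S100A16, SERPINB5, ELF3 and FA2H). The 218 genes that remained are called the shared KLF5-dependent genes below.

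KLF5 is a zinc finger factor of the Krüppel-like family, which binds GC-rich and CACCC-type DNA and activates genes in the epithelia of the gut, pancreas and other organs. It is known for its part in epithelial growth and identity, and in PDAC it is expressed by both the classical and the basal-like subtype. RUVBL1 and RUVBL2 are AAA+ ATPases that form a ring-shaped complex found in chromatin remodellers, and CDK9 is the kinase that releases paused RNA polymerase II into elongation.

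In this SLAM-seq study, cells received 4-thiouridine (4sU) for the last 2 h of treatment. Reads with T>C conversions are therefore taken as RNA made in that window, though the background of conversions is not known. All 62 libraries carry the genotype FKBP12-F36V-FLAG-KLF5_sgEndogenousKLF5: degron-tagged KLF5 delivered by lentivirus took the place of the endogenous protein, in antibiotic-selected cells that also carry Cas9. At 4 h, AsPC-1 (classical model) had 10 libraries each of dTAG, the degrader dTAGv-1, and of NEG, its inactive analogue dTAGv-1-NEG, and T3M-4 (basal-like model) had 4 of each. The RUVBL1/2 ATPase inhibitor CB-6644 had 5 libraries in AsPC-1 at 4 h against 5 DMSO, 4 against 4 at 12 h, and 4 against 4 in T3M-4 at 4 h, and the CDK9 inhibitor NVP-2 had 4 libraries at 4 h in each line. No library of the CB-6644, NVP-2 or DMSO groups entered the choice of the genes other than through the scaling factors of its line. Replicate numbers such as 1.2 give the experiment before the point, and libraries of 1 experiment may be technical repeats, in which case the p-values measure only the spread between these libraries. In AsPC-1 the 4 h DMSO libraries belong to batch 1 of the labels and the NVP-2 libraries to batch 2, so batch and NVP-2 cannot be told apart there.

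T>C reads totalled 2240998 to 18311982 per library in AsPC-1 and 3714015 to 27982537 in T3M-4, with the lowest totals in the NVP-2 libraries of each line. The shared KLF5-dependent genes took 32871 to 473815 of them in AsPC-1 and 61861 to 713596 in T3M-4. The epithelial markers EPCAM, CDH1, KRT8, KRT18 and KRT19 were present in both lines. HNF4A, a classical marker, had a median of 33.6 CPM over the DMSO and NEG libraries of AsPC-1 and 0.0568 in T3M-4, while TP63, a basal-like marker, had 0 and 42.8 CPM. All 4 leukocyte and endothelial markers (PTPRC, CD14, PECAM1 and VWF) had medians under 1 CPM, and of 3 fibroblast markers only LUM in AsPC-1 (4.52 CPM) and COL1A1 in T3M-4 (7.52 CPM) were above it. KLF5 RNA itself was at 66.7 to 135.3 CPM in NEG and 127.7 to 189.1 in dTAG libraries of AsPC-1, and since the degrader acts on the protein this does not check the labels. In such bulk libraries, fewer cells making an RNA and less of it per cell cannot be told apart.

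Among the 218 genes, the dTAG minus NEG difference of mean log2(T>C CPM + 1) had a median of -0.86 in AsPC-1 (range -2.54 to -0.50) and -0.92 in T3M-4 (-3.08 to -0.50). These values selected the genes and are given as a description without a test. A difference of at least 1 log2 unit in both lines was seen for 53 genes; 127 genes were lowered further in T3M-4 and 91 further in AsPC-1. The genes nearest the limit were, inside it, BCL9L (-0.500499) and AGAP1 (-0.501997) in AsPC-1 and PIK3C2B (-0.500288) and LIPH (-0.500967) in T3M-4. Just outside it were ARHGAP42 (-0.499574) and ZNF219 (-0.498715) in AsPC-1 and ADAM15 (-0.499948) and PLAU (-0.499864) in T3M-4. Of the 218, edgeR's quasi-likelihood test called 114 lower in AsPC-1 at an adjusted p under 0.05, against 1.94% of all genes tested, and 54 in T3M-4, against 0.745%. Only 34 were called in both lines, with 80 called in AsPC-1 alone, 20 in T3M-4 alone and 84 in neither. All dTAG libraries lay below all NEG libraries for 32 genes in AsPC-1 (0.41% of all genes tested) and for 130 in T3M-4 (3.81%). All these counts rest on the contrast that chose the genes, so nothing is read from them.

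**Figure D1:**
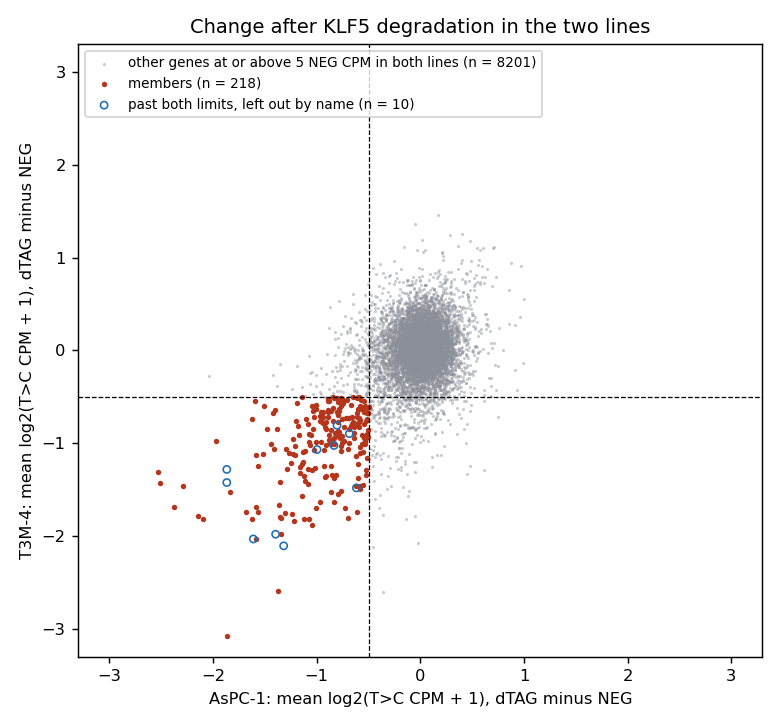
Difference of mean log2(T>C CPM + 1), dTAG minus NEG, in AsPC-1 (x axis) and T3M-4 (y axis) for the genes at or above 5 NEG CPM in both lines, with dashed lines at the limit of -0.5. The 218 chosen genes (red) fill the lower left corner by construction, 10 further genes there (open circles) were left out by name, and 8201 other genes are grey.

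The lowest differences averaged over both lines were those of RNU6-1175P, RASSF5, CDA, LAMA3, HR, C1orf116, TNS4, SEMA3B, TLN2, ALS2CL, TNFAIP2 and UNC5B. RASSF5, a Ras-association domain protein that binds active Ras and Rap GTPases (chromosome 1, 206507531 to 206589448 on GRCh38), ranged from 11.4 to 42.9 CPM with a median of 31.3 over the 10 NEG libraries of AsPC-1, and from 1.02 to 15.2 with a median of 4.58 over the 10 dTAG libraries. In T3M-4 its NEG libraries held 99.8, 117, 209 and 168 CPM and its dTAG libraries 58.7, 25.4, 44.9 and 53.7 CPM. The groups overlapped in AsPC-1, where 3 NEG libraries lay under the highest dTAG library, and not in T3M-4.

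LAMA3, a chain of the laminin that anchors epithelial cells to the basement membrane (chromosome 18, 23689453 to 23956222), had 15.6 to 75.8 CPM with a median of 38.9 in NEG libraries of AsPC-1 against 2.34 to 17.98 with a median of 8.26 in dTAG libraries. Its T3M-4 values were 85.995, 90.5, 136 and 118 CPM in NEG against 20.8, 34.2, 33.5 and 34.0 in dTAG libraries. Again the groups overlapped in AsPC-1 only, by the lowest NEG library. TNS4, a tensin of focal adhesions (chromosome 17, 40475828 to 40501623), did not overlap in either line: AsPC-1 NEG libraries ran from 27.8 to 44.4 CPM with a median of 35.1, and dTAG libraries from 2.30 to 16.5 with a median of 4.38. In T3M-4 it had 105, 93.3, 151 and 186 CPM in NEG and 47.4, 38.0, 58.0 and 67.5 in dTAG libraries.

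C1orf116 (chromosome 1, 207018522 to 207032756) fell from a median of 55.6 CPM (29.8 to 69.4) to 10.2 (5.12 to 28.5) in AsPC-1. In T3M-4 it had 300, 326, 463 and 466.5 CPM in NEG and 95.5, 79.4, 133 and 133 in dTAG libraries, and no dTAG library of either line reached its NEG range. CDA, the cytidine deaminase that inactivates the drug gemcitabine (chromosome 1, 20589086 to 20618903), was the protein-coding gene with the lowest difference in T3M-4. Its 4 NEG libraries there held 42.0, 31.0, 61.0 and 61.5 CPM, and its dTAG libraries 4.47, 5.84, 11.4 and 7.70, with a wide gap between the groups. In AsPC-1, where the difference was smaller, CDA overlapped between NEG (13.7 to 48.9 CPM, median 24.3) and dTAG (3.52 to 19.9, median 9.39).

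RNU6-1175P, a U6-type small nuclear RNA entry on chromosome 11 (70075363 to 70075469), had the lowest difference of all in T3M-4 (-3.08). Its 4 NEG libraries held 9.15, 12.5, 31.3 and 32.8 CPM and its dTAG libraries 0.870, 0.482, 2.48 and 2.06. The 107 bases share exon sequence with LINC02584 on the opposite strand, and U6 copies are near-identical. They also lie within ANO1 (69985907 to 70189530), another of the 218, on the same strand, with starts 89456 bases apart. The source of the RNU6-1175P reads is therefore uncertain, and reads from ANO1 itself could not be told apart. Of the other 6 of these 12 genes, HR, a corepressor of nuclear receptors, had differences of -2.51 in AsPC-1 and -1.42 in T3M-4, SEMA3B, a secreted semaphorin, -2.29 and -1.46, and TLN2, a talin that links integrins to actin, -1.59 and -2.04. ALS2CL had -1.63 and -1.82, TNFAIP2, a gene induced by tumour necrosis factor, -1.68 and -1.74, and UNC5B, a netrin receptor, -1.84 and -1.52.

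By annotation, 212 of the 218 are protein coding, and the other 6 are LINC01133, LINC01322, SH3TC2-DT, RPS12P26, the mitochondrial valine tRNA MT-TV and RNU6-1175P. Of all 218, 37 share exon sequence with a gene on the same strand, 76 with one on the opposite strand and 123 with neither, and reads of such partners could not be told apart where the counting did not separate them. RTEL1-TNFRSF6B and TNFRSF6B are one such pair and count as 2 of the 218. RNU6-1175P lies within ANO1 and RPS12P26 within SEMA4B, each on the same strand but without shared exon sequence. ANO1 and SEMA4B are also among the 218.

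RefSeq promoter windows (250 bases before to 50 after the start, GRCh38.p14) were matched for 165 of the 218 genes. CCNCNCCC, a GC-box and CACCC-type core searched on both strands, occurred in 139 of these windows (84.2%), against 74.5% of the 6906 windows of genes at or above 5 NEG CPM and 55.1% of all 27305 windows. Member windows were richer in GC, with a median of 70.0% against 65.7% and 58.3%. At matched GC the comparison went both ways. At 40 to 50% GC, 3 of 14 member windows held the core, against 29.7% of windows at that NEG level, and at 80 to 90% GC 15 of 16 did, against 98.3%. In between, the counts were 9 of 15 against 54.1% at 50 to 60%, 45 of 50 against 76.4% at 60 to 70%, and 66 of 67 against 93.4% at 70 to 80%, and below 40% there were 3 member windows. CCACACCC, whose letters also match CCNCNCCC, was in 9 member windows (5.46%), against 2.80% and 3.22%, GGGCGG in 74.6% against 72.2% and 44.6%, and TATAAA in 8.49% against 4.68% and 12.0%. A match is a description of letters, not of binding.

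The stretches of 30 bases below show that core, in capitals, in the promoters of 4 of the genes just described and of 2 that return under CB-6644; each is written 5′ to 3′ on the strand of its gene, so that the core reads as CCNCNCCC or as its reverse complement.
RASSF5, chr1:206507464-206507493, plus strand: ccccgcccccgCCCCGCCCagcaggctgcg
LAMA3, chr18:23872787-23872816, plus strand: gggcgtctgcaGGGTGAGGtgggtggaagg
C1orf116, chr1:207032731-207032760, minus strand: agtcagtggcaGGGTGGGGgccaggcagca
TNFAIP2, chr14:103123397-103123426, plus strand: aggggcgggcgGGGCGGGGctgactctgcg
CEACAM1, chr19:42528517-42528546, minus strand: tcctggacaaaCCCCGCCCcagcacacatg
LAMB3, chr1:209652423-209652452, minus strand: aacctggagccGGGAGGGGagacccccaca
RASSF5 carried the core 4 times in its window, TNFAIP2 4 times, C1orf116 3 times, and LAMA3, CEACAM1 and LAMB3 once. CDA and SEMA3B had no match in theirs.

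Sorted by known role, the largest group held 39 regulators and binders of the actin cytoskeleton, out of 79 such genes at or above 5 NEG CPM in the list used. Their median difference was -0.85 in AsPC-1 and -1.06 in T3M-4. ARHGEF2, an exchange factor for RhoA, had differences of -0.92 and -1.35, and EPB41L1, which links spectrin and actin to the membrane, -1.59 and -1.68 in AsPC-1 and T3M-4. MPRIP, which targets myosin phosphatase to actin, had -0.79 and -0.92.

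Adhesion, junction and matrix genes numbered 26 of 65 at that level, with median differences of -0.94 and -1.02. They included both chains of the hemidesmosome integrin: ITGB4 was at 488 ± 135 CPM in NEG and 250 ± 75.3 in dTAG libraries of AsPC-1 (n = 10 each), and at 482 ± 110.6 and 294 ± 51.996 in T3M-4 (n = 4 each), and ITGA6 differed by -0.64 and -0.94. LAMA5 and LAMB3, further laminin chains, were lower by 1.14 in AsPC-1, and by 1.23 and 1.56 in T3M-4, on the log2 scale. PLEC, plectin, which ties hemidesmosomes to keratin filaments, differed by -0.82 and -0.89, JUP, plakoglobin of desmosomes and adherens junctions, by -0.86 in each line, and CDH1, E-cadherin, by -0.66 and -0.80. CD9, a tetraspanin, was among the most abundant, at 864 ± 358 CPM in NEG and 463 ± 153 in dTAG libraries of AsPC-1.

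Ligands, receptors and other secreted regulators made up 29 of 65, with median differences of -0.84 and -1.03. Among the ligands were TGFA, a ligand of the EGF receptor (-1.06 in AsPC-1 and -0.91 in T3M-4), PDGFA (-1.20 and -0.76), WNT7B (-0.80 and -0.67), LIF, a cytokine of the interleukin-6 family (-0.53 and -0.98), and the fibroblast growth factor FGF19 (-1.18 and -0.81). FGF19 was low in T3M-4, with a mean of 5.48 CPM in NEG libraries against 53.0 in AsPC-1. Receptors included EPHA2, a receptor tyrosine kinase for ephrins (-1.01 and -1.27), NRP2, a co-receptor for semaphorins and VEGF (-1.56 and -1.74), and PLAUR, the urokinase receptor, with 879 ± 335 CPM in NEG and 379 ± 95.2 in dTAG libraries of AsPC-1 (n = 10), against 416 ± 24.4 and 225.1 ± 59.9 in T3M-4 (n = 4). F3, tissue factor, which starts the clotting cascade, had in T3M-4 947, 655, 745 and 790 CPM in NEG and 262, 293, 268 and 276 in dTAG libraries. That gap was wide in T3M-4, whereas in AsPC-1, with NEG at 139 to 306 and dTAG at 63.8 to 224.8 CPM, the groups overlapped. CD55, which protects cells from complement, differed by -0.55 and -0.80.

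The 33 signalling adaptors, kinases and cell-cycle regulators (of 67) had median differences of -0.89 and -0.95. CDKN1A, the p21 inhibitor of cyclin-dependent kinases, differed by -1.48 and -0.84, PTK6, an epithelial non-receptor tyrosine kinase, by -1.45 and -1.01, SFN, the 14-3-3 sigma adaptor, by -0.59 and -0.72, FAM83A by -1.35 and -1.80, and BCL2L1, which encodes the survival protein BCL-XL, by -0.58 and -1.11. Of 76 genes listed as transcription regulators at that level, 15 were members, a smaller share (19.7%) than in any other list that held one. They count MIDN, whose place in that list is uncertain. JUNB, an AP-1 subunit, was at 176 ± 89.0 CPM in NEG and 68.9 ± 21.3 in dTAG libraries of AsPC-1 and at 291 ± 60.4 and 124 ± 22.7 in T3M-4. ID1, which binds basic helix-loop-helix factors and keeps them off DNA, differed by -1.59 in AsPC-1 and by -0.55 in T3M-4; the other transcription regulators included HR, BCL3, GLI2, PITX1, SOX7 and MNT.

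Channels and transporters made up 16 of 37 (median -0.98 and -0.78), among them SLC2A1, the glucose transporter GLUT1 (-1.52 and -1.12), SLC16A3, the lactate exporter MCT4 (-1.63 and -0.74), the phosphate transporter SLC20A1 (-1.42 and -0.68) and the chloride channel ANO1 (-1.08 and -1.44). Metabolic, lipid and glycan enzymes made up 15 of 31 (median -0.75 and -0.77), with CDA, PTGES, which makes prostaglandin E (-1.37 and -1.66), the retinol dehydrogenase DHRS9 (-0.97 and -0.76), the aldehyde dehydrogenase ALDH3A1 (-0.65 and -0.79) and the sialyltransferase ST3GAL4 (-0.79 and -0.65). Only 5 of 19 proteases and protease inhibitors were members: TIMP2, an inhibitor of metalloproteinases (-1.13 and -1.82), BMP1, ADAM8, CTSD and CAPN1. No gene of the cornified envelope list reached 5 NEG CPM in both lines, and 40 members were in no list. The lists were drawn up with results on these samples known, so their counts are no independent evidence of direction.

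A gap of more than 1 log2 unit between the lines was seen for 7 genes: RNU6-1175P, CDA, PDLIM2 and TP53I11 were lower in T3M-4 than in AsPC-1, and HR, TNS4 and ID1 the reverse. Genes of the published Moffitt basal-like signature made up 17 of the 218 (7.80%), against 0.890% of all genes at or above 5 NEG CPM, and genes of the classical signature 7 (3.21%), against 0.439%. Genes that the study placed near KLF5 peaks specific to classical lines were 27 (12.4% against 4.59%), and those near peaks specific to basal-like lines 33 (15.1% against 4.51%). The study's own KLF5 target lists, which were chosen on these same dTAG libraries, held 46 of the 218 for AsPC-1 and 38 for T3M-4.

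**Figure D2:**
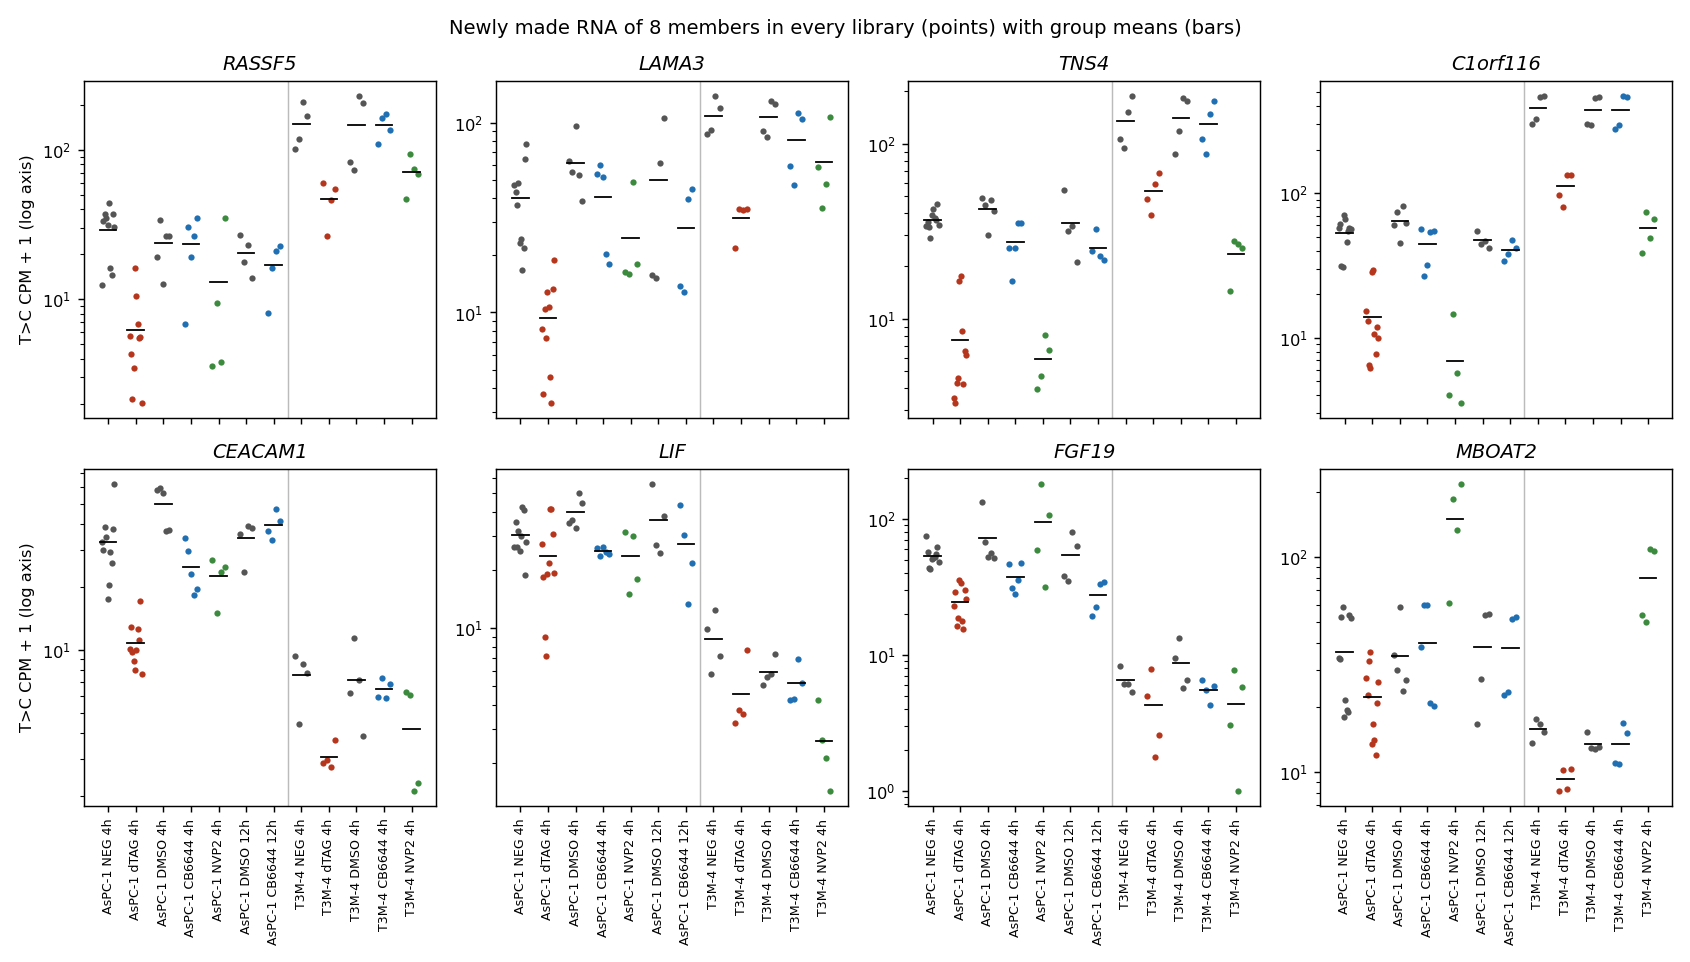
T>C CPM + 1 (log axis) of 8 of the shared KLF5-dependent genes in every library, by group, with bars at group means; AsPC-1 groups stand left and T3M-4 groups right of the grey line. In the dTAG groups (red) the group means of RASSF5, LAMA3, TNS4 and C1orf116 lie below those of NEG in both lines, with some overlap of RASSF5 and LAMA3 libraries in AsPC-1, the CB-6644 points (blue) of LIF, CEACAM1 and FGF19 lie below the 4 h DMSO points in AsPC-1, and MBOAT2 is higher in the NVP-2 groups (green) of both lines on this scale, though at log2 fold changes of -0.89 and -0.31 with library sizes from all reads.

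The labelled share is the percentage of a gene's reads in a library that carry T>C conversions. It is a relative index of how much of an RNA was made in the 2 h of labelling, and tends to be high for short-lived RNA. Not every new read carries a conversion. None of the 62 libraries is named as made without 4sU, so the background of conversions is not known here. In the 4 h DMSO libraries the median over the 218 genes was 15.1 ± 1.68% in AsPC-1 (mean and SD of library medians, n = 5) and 18.1 ± 3.32% in T3M-4 (n = 4). For the 8429 genes at that NEG level it was 16.3% and 18.2%. By the mean share of each gene over those libraries, 103 of the 218 in AsPC-1 and 113 in T3M-4 lay above the median of all genes at that level. The genes spanned a wide range. EPHA2 (64.9%), LIF (63.8%) and JUNB (61.1%) were highest in AsPC-1, and ID1 (84.7%), JUNB (81.04%) and TMCC1 (74.5%) in T3M-4. C19orf33 (1.15% and 1.398%) and the lysosomal protease CTSD (1.17% and 2.18%) were lowest in both lines, followed by CRIP1 in AsPC-1 (1.75%) and PRDX5 in T3M-4 (2.97%).

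The same share in dTAG and NEG libraries is bound to the choice of genes and is given as a description. Its median was 14.2 ± 0.834% in NEG (n = 10) and 8.99 ± 0.698% in dTAG libraries of AsPC-1 (n = 9, since the all-reads column of 1 dTAG library repeated another column and was left out). In T3M-4 it was 18.9 ± 0.908% and 13.3 ± 2.80% (n = 4 each). Over all genes at that level it was 15.5% and 12.9% in AsPC-1 and 18.3% and 19.2% in T3M-4. Of single genes, EPHA2 went from 60.6 to 51.2% and LIF from 56.9 to 46.1% in AsPC-1, while in T3M-4 LIF had 72.4% in NEG and 72.1% in dTAG libraries.

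**Figure D3:**
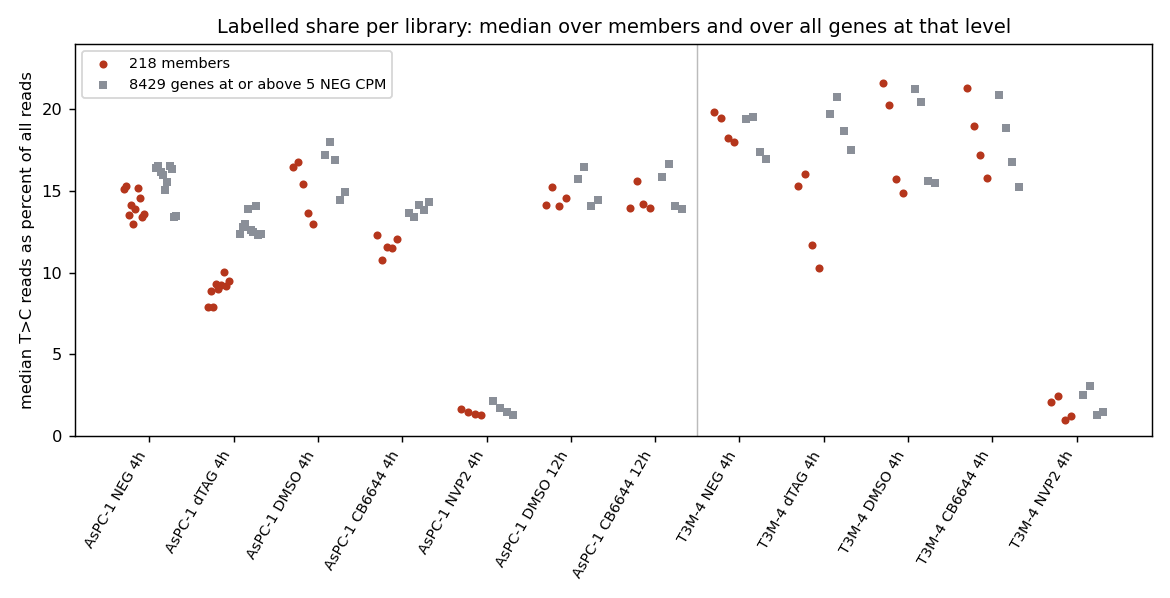
Median labelled share (T>C reads as percent of all reads) per library, over the 218 genes (red circles) and over the 8429 genes at or above 5 NEG CPM in both lines (grey squares). Both are lowest under NVP-2, at 1.42% and 1.66% on average in AsPC-1 and 1.68% and 2.08% in T3M-4. In the NVP-2 and dTAG libraries the red points lie below the grey ones. The same holds in all 4 h DMSO and CB-6644 libraries of AsPC-1 (ratios of 0.870 to 0.958 and 0.803 to 0.901) and in most of its NEG libraries.

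CB-6644 tests whether the genes chosen as lower after KLF5 degradation also respond to inhibition of the RUVBL1/2 ATPase. Its libraries and their DMSO controls entered the selection only through the scaling factors of their line. At 4 h they carry experiment and batch numbers that dTAG and NEG libraries of the line also carry. After 4 h in AsPC-1 the 218 genes were on balance slightly lower: their median log2 fold change was -0.19, against -0.01 over the 11649 genes tested, and 72.02% of them were below 0, against 50.8%. With library sizes from all reads the median was -0.41, against -0.23 over all genes, and tested on all reads in place of T>C reads it was -0.035, against -0.014. The median of log2(CPM + 1) minus the DMSO mean was -0.23, -0.18, -0.21, -0.18 and -0.19 in the 5 CB-6644 libraries and 0.06, 0.09, -0.07, 0.12 and -0.14 in the 5 DMSO libraries. Every CB-6644 library lay below every DMSO library, while over all genes at that NEG level the library medians stayed between -0.02 and 0.03. With only experiment 1 the median was -0.20, and with only experiment 2 it was -0.14.

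No single gene passed the test over all genes. None of the 218 reached an adjusted p under 0.05 in edgeR's quasi-likelihood test, and neither did any other gene (0 called, 0%); DESeq2 called 0 of the 218 too. At an unadjusted p under 0.05, 19 of the 218 (8.72%) were lower, against 2.14% of all genes tested, and 2 were higher. All 5 CB-6644 libraries lay below all 5 DMSO libraries for 3 of the 218 (LIF, CEACAM1 and FGF19), against 0.343% of all genes.

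LIF had 34.0, 35.3, 31.9, 48.9 and 43.2 CPM in DMSO and 25.1, 22.6, 25.2, 23.6 and 23.2 in CB-6644 libraries of AsPC-1 at 4 h, a log2 fold change of -0.68 (SE 0.156). CEACAM1, an adhesion receptor of the immunoglobulin family, had 57.4, 58.6, 55.6, 36.1 and 36.5 against 33.3, 28.8, 22.1, 17.4 and 18.5 CPM (log2 fold change -1.02, SE 0.231). For FGF19 the values were 134, 66.5, 52.04, 54.9 and 50.99 in DMSO against 45.7, 30.1, 27.2, 34.7 and 46.4 CPM (-0.95, SE 0.288; -0.60 without DMSO 1.1, which stands above the rest). These 3 genes were lower in every CB-6644 library, with a clear gap for LIF and CEACAM1 within each experiment. LAMB3, with 95.0, 56.0, 152, 234 and 170 CPM in DMSO and 62.1, 72.3, 54.1, 70.6 and 71.8 in CB-6644 libraries (-1.08, SE 0.309), overlapped through 1 low DMSO library. The adjusted p of all 4 was 0.979 in edgeR's test.

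After 12 h in AsPC-1 the median over the 218 genes was -0.15, against -0.01 over 12204 genes tested, and 72.02% of them were below 0, against 51.2%. The library medians did overlap at this time: -0.25, -0.19, 0.03 and -0.06 in CB-6644 and 0.00, -0.19, 0.19 and 0.06 in DMSO libraries. Same-numbered libraries deviated together here, though the same-numbered DMSO library was the best match for only 2 of 4 treated libraries. Within the 4 numbered pairs the median of the 218 differences, CB-6644 minus DMSO, was -0.21, 0.02, -0.15 and -0.09. The test called 0 members and 0% of all genes lower, and 6 members (2.75%) were lower at an unadjusted p under 0.05, against 1.88% of all, or 15 against 2.66% with a replicate block; DESeq2 called 0 members. With 3 members (CCDC9B, FGF19 and SH3BGRL3) all treated libraries lay below all DMSO libraries, against 1.41% of all genes tested. FGF19 was again lower, at 37.3, 33.8, 79.3 and 62.9 CPM in DMSO and 18.4, 21.4, 32.4 and 33.5 in CB-6644 libraries (-1.01, SE 0.321, edgeR adjusted p = 0.998). CEACAM1 was not: its log2 fold change at 12 h was 0.23. SH3BGRL3 was at -0.78 (SE 0.251) and CCDC9B at -1.03 (SE 0.329), from means under 10 CPM for the latter. PITX1, a homeobox factor, had -0.68 (SE 0.255) at 12 h.

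In T3M-4 the 218 genes stayed close to the rest after 4 h of CB-6644, with a median of -0.03 against 0.00 over 13444 genes tested, and 55.0% below 0 against 49.6%. The library medians were -0.18 and -0.07 in experiment 1 and 0.03 and 0.09 in experiment 2 under CB-6644, and -0.13, -0.06, 0.12 and 0.08 in DMSO. In both groups the libraries of experiment 1 were the lower ones, and the groups overlapped. The median log2 fold change was -0.07 within experiment 1 and -0.04 within experiment 2. The test called 0 members and 0% of all genes lower, 2 members (0.917%) were lower at an unadjusted p under 0.05, against 1.78% of all, or 11 against 3.27% with a replicate block, and DESeq2 called 0 members. For 2 members, F3 and SLC2A1, the treated libraries were all lower than the DMSO libraries, as they were for 1.59% of all genes. F3 had 670, 759, 806 and 834 CPM in DMSO and 293, 387, 655 and 672 in CB-6644 libraries (-0.61, SE 0.265), with the larger gap in experiment 1. The smallest p belonged to a gene that was higher: SH3BP2, an SH3-binding adaptor protein, with 29.2, 19.3, 26.4 and 18.7 CPM in DMSO and 40.9, 44.4, 37.9 and 28.3 in CB-6644 libraries (0.70, SE 0.223, edgeR adjusted p = 0.994). KAT14, which shares exon sequence with PET117, was at 1.04 (SE 0.398), and LFNG, a glycosyltransferase that modifies Notch receptors, at 0.62 (SE 0.257). ALDH3A1 had 259, 498, 194 and 198 CPM in DMSO and 202, 159, 136 and 165 in CB-6644 libraries (-0.79, SE 0.308; -0.40 without DMSO 1.2, the highest library).

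Whether the response to CB-6644 at 4 h differed between the lines was tested as an interaction term over 13963 genes. Among the 218, 0 were called by edgeR, as were 0 of all genes, and 6 (2.75%) had an unadjusted p under 0.05, against 3.66% of all genes. The median difference, T3M-4 minus AsPC-1, was 0.14 for the 218 genes and 0.01 for all, and 66.5% of the 218 were above 0, against 50.6%. CEACAM1 differed by 0.85 (SE 0.422), LIF by 0.44 (SE 0.293) and FGF19 by 0.16 (SE 0.450), none of them past the test, so no gene is shown to respond differently in the lines.

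The labelled share gave a second reading of the AsPC-1 libraries at 4 h. Its median over the 218 genes was 16.5, 16.8, 15.4, 13.7 and 12.99% in DMSO and 12.3, 10.8, 11.6, 11.5 and 12.1% in CB-6644 libraries, with no overlap. Over all genes at that NEG level it was also lower, at 13.4 to 14.3% under CB-6644 against 14.4 to 18.01% in DMSO. As a ratio to all genes the members stood at 0.839 ± 0.0377 under CB-6644 and 0.924 ± 0.0346 in DMSO (SD, n = 5 each), and these ranges overlapped, at 0.803 to 0.901 and 0.870 to 0.958. At 12 h the share was 14.4 ± 0.785% and 14.5 ± 0.526%, and in T3M-4 18.3 ± 2.36% and 18.1 ± 3.32%, each with n = 4 and with overlapping libraries.

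**Figure D4:**
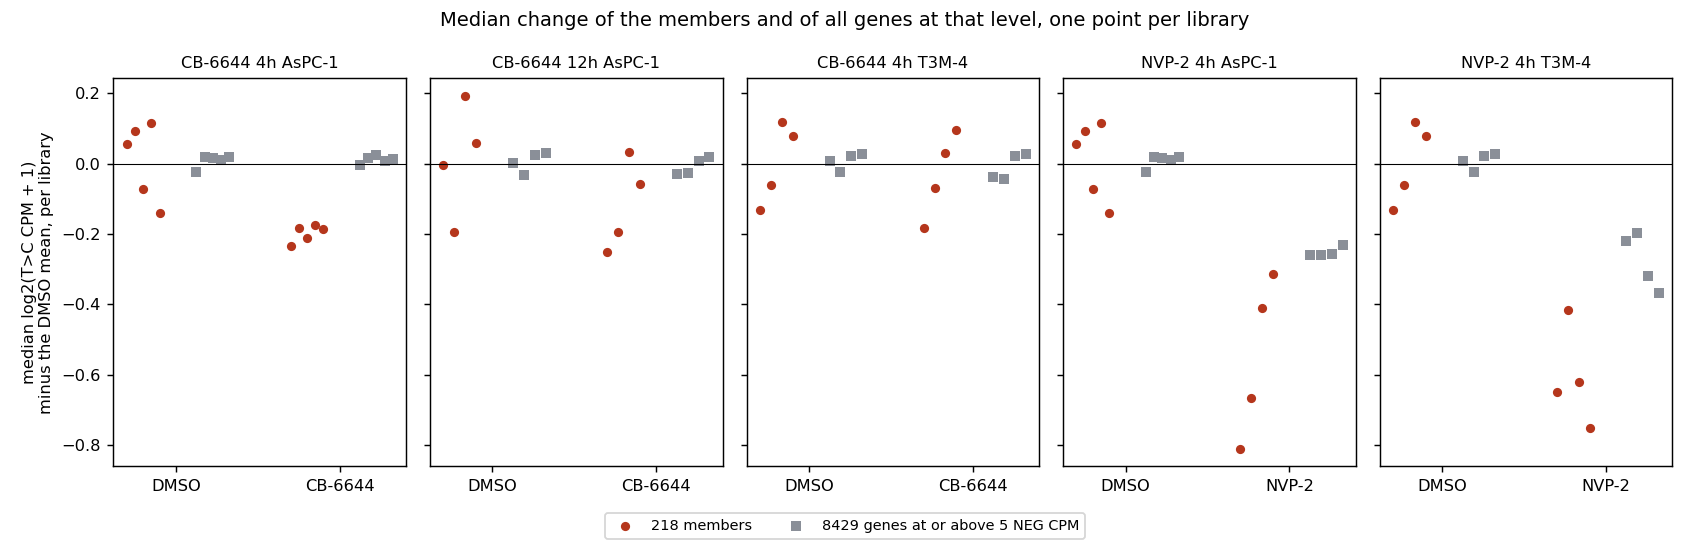
Median of log2(T>C CPM + 1) minus the DMSO mean in each library, over the 218 genes (red circles) and over the 8429 genes at or above 5 NEG CPM (grey squares), for the 5 comparisons with DMSO. The 5 CB-6644 libraries of AsPC-1 at 4 h lie between -0.23 and -0.18, below all DMSO libraries; at 12 h and in T3M-4 the groups overlap, and under NVP-2 the 218 genes lie further down than all genes.

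Reads with T>C conversions were a far smaller share of all reads in the NVP-2 libraries, where the unknown background of conversions may weigh more. The labelled share of the 218 genes was 1.42 ± 0.169% in AsPC-1 and 1.68 ± 0.703% in T3M-4 (n = 4 each), and that of all genes at that level 1.66% and 2.08%. T>C CPM hide such a loss, since each library is scaled to its own T>C reads and no spike-in was used. On that relative scale 52 of the 218 genes (23.9%) were called lower in AsPC-1, against 17.6% of all genes tested, and 12 (5.50%) higher, against 12.9%. Of the 8428 genes at or above 5 NEG CPM, 1716 were lower and 1170 higher. With library sizes taken from all reads in place of T>C reads, 214 of the 218 were lower and 0 higher. Of all 11498 genes tested, 10650 were then lower and 8 higher, with a median of -3.05. In T3M-4, 55 of the 218 (25.2%) were lower, against 14.2%, and 15 (6.88%) higher, against 12.4%. Of those 8428 genes, 1354 were lower and 1211 higher. Library sizes from all reads gave 204 of the 218 lower and 0 higher there. Of all 12242 genes tested, 10526 were then lower and 10 higher, with a median of -2.97, so most genes of any kind were called lower. The directions below are therefore relative to other genes, not amounts per cell.

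The median log2 fold change of the 218 genes under NVP-2 was -0.47 in AsPC-1, against -0.05 over 11498 genes tested, and -0.43 in T3M-4, against -0.12 over 12242. Tested on all reads in place of T>C reads, the median was -0.20 in AsPC-1, against 0.056 over all genes. In T3M-4 it was 0.016, against 0.058, so the sign turned there but the 218 genes stayed slightly below all genes. Called lower were 34 of the 218 and 1183 of 14095 genes in AsPC-1, and 17 and 769 of 15653 in T3M-4. Library medians were -0.81, -0.67, -0.41 and -0.31 in AsPC-1, where all genes at that NEG level were at -0.26 to -0.23, and -0.65, -0.41, -0.62 and -0.75 in T3M-4, where they were at -0.37 to -0.20. Every NVP-2 library therefore had the 218 genes lower, relative to its own T>C reads, than genes of that level as a whole. The 12 h DMSO libraries of AsPC-1 belong to the batch of the NVP-2 libraries. With them as control, 47 of the 218 were called lower (38 of them among the 52) and 4 higher, with a median of -0.54. Of all 11293 genes tested, 1629 were then lower and 1199 higher, with a median of -0.07.

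C1orf116 was among the lowest in both lines: 59.0, 72.7, 44.4, 79.9 and 61.6 CPM in DMSO and 2.98, 13.5, 4.69 and 2.52 in NVP-2 libraries of AsPC-1 (log2 fold change -3.33, SE 0.474, edgeR adjusted p = 0.000496). In T3M-4 it had 298, 295, 455 and 461 against 37.5, 73.4, 48.1 and 65.2 CPM (-2.71, SE 0.321, edgeR adjusted p = 0.000471). No NVP-2 library came near the DMSO range. THBD, thrombomodulin, an anticoagulant receptor of the cell surface, fell by 2.98 (SE 0.336) in AsPC-1 and by 3.67 (SE 0.372) in T3M-4 on the log2 scale, with 33.9 to 51.3 CPM in DMSO and 3.28 to 6.98 in NVP-2 libraries of AsPC-1, and 84.9 to 94.8 against 3.73 to 10.9 in T3M-4. TNS4, low after KLF5 degradation, was lower after NVP-2 as well, at -3.04 (SE 0.348) and -2.59 (SE 0.363).

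MOB3C, of the MOB protein family, had the lowest value in AsPC-1 (-4.97, SE 0.904), with 12.3, 21.04, 11.9, 7.41 and 13.4 CPM in DMSO and 0, 0, 0 and 1.89 in NVP-2 libraries, so its size rests on few reads. In T3M-4 it was at -2.94 (SE 0.495). The gene shares exon sequence with MKNK1 on the same strand. AVPI1 was at -3.39 (SE 0.622) and -3.51 (SE 0.418). SOX7, a SOX-family transcription factor, was lowest in T3M-4, with 161, 149.7, 123 and 126.2 CPM in DMSO and 9.38, 3.69, 1.86 and 5.22 in NVP-2 libraries (-4.74, SE 0.463, edgeR adjusted p = 0.000268); in AsPC-1 it was not called (-1.64, SE 0.648, edgeR adjusted p = 0.0739), and it shares exon sequence with PINX1. SEMA3B was at -2.25 (SE 0.622) and -4.01 (SE 0.963), and at 0.36 in AsPC-1 when all reads were tested in place of T>C reads.

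At the other end, MBOAT2, an acyltransferase of membrane phospholipids, rose relative to other genes in both lines. It had 33.9, 28.9, 57.7, 22.8 and 25.9 CPM in DMSO and 60.1, 186, 133 and 218 in NVP-2 libraries of AsPC-1 (2.21, SE 0.382, edgeR adjusted p = 0.00148; -0.89 with library sizes from all reads). In T3M-4 it had 14.3, 11.9, 11.8 and 12.1 against 52.8, 48.7, 108 and 106 CPM (2.69, SE 0.362, edgeR adjusted p = 0.000786; -0.31 with library sizes from all reads). All NVP-2 libraries lay above all DMSO libraries in each line. MT-TV, made by the mitochondrial polymerase, was at 2.13 (SE 0.641) and 2.83 (SE 0.437), and at -0.85 and -0.13 with library sizes from all reads; its call in AsPC-1 was lost without DMSO 2.1, DMSO 2.2 or NVP-2 1.1 (edgeR adjusted p = 0.0539, 0.0551 and 0.0969).

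CTSD, of very low labelled share, was at 1.98 (SE 0.546) in AsPC-1 and at 1.33 (SE 0.586, edgeR adjusted p = 0.120, not called) in T3M-4, and at -1.10 in AsPC-1 with library sizes from all reads. In AsPC-1 its NVP-2 libraries held 26.8, 160, 159 and 137 CPM against 11.3 to 65.7 in DMSO, with 1 of the 4 inside the DMSO range. TP53I11 had the highest value in T3M-4 (3.09, SE 0.488; 0.06 with library sizes from all reads) and 0.35 (SE 0.683) in AsPC-1, where it was not called. ITGB4 was called higher in both lines, at 0.99 (SE 0.273) and 1.19 (SE 0.384), and was at -2.005 and -1.79 with library sizes from all reads; in T3M-4 the call was lost in 6 of 8 fits that left out 1 library.

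The called genes overlapped between lines, whose libraries are separate: 30 genes were lower in both, which is 57.7% of the 52 in AsPC-1 and 54.5% of the 55 in T3M-4. They included LAMB3, EPHA2, F3, PLAUR, PLEC, WNT7B, PDGFA and EFNB1, the transcription regulators GLI2, NAB1 and TOB1, and also MIDN and SLC20A1. Over the 10708 genes tested in both lines the shares were 53.1% of 1941 and 66.5% of 1548. Over the 8428 of these at or above 5 NEG CPM they were 55.6% of 1716 and 70.5% of 1354. Higher in both were 7 (ANO1, GPC1, ITGB4, MBOAT2, MT-TV, TNFRSF6B and TOM1L2), 58.3% of 12 and 46.7% of 15. Those shares were 51.3% and 51.4% over the 10708 genes, and 55.7% and 53.8% over the 8428. With library sizes from all reads, 0 of the 218 were higher in either line. Across the 218 genes the fold changes of the 2 lines had a Pearson r of 0.66 and a Spearman rho of 0.66. Over the 10708 genes they were 0.69 and 0.71, and over the 8428 genes 0.75 and 0.75. These values describe genes, which are not independent replicates.

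By role, NVP-2 called lower 6 of 15 genes listed as transcription regulators in AsPC-1 and 8 in T3M-4, MIDN among them in each line. Of the others in that list, 33 of 73 and 40 of 78 tested were called lower. Among the receptors and ligands it was 11 and 13 of 29, next to 16 of 55 and 14 of 57 of the others, and among adhesion genes 8 and 5 of 26, next to 5 of 57 and 9 of 64, with 3 and 3 higher, next to 5 and 12 of the others. For actin regulators the counts were 7 and 10 of 39 (others 11 of 46 and 6 of 45), and for signalling adaptors 4 and 8 of 33 (others 23 of 44 and 18 of 45). Channels and transporters had 4 and 4 of 16 (others 4 of 27 and 3 of 29), proteases and inhibitors 0 and 0 of 5 (others 1 of 23 and 3 of 28), and metabolic enzymes 2 and 0 of 15 (others 6 of 32 and 3 of 32). JUNB and ID1, both of very high labelled share, were called lower in T3M-4 (-1.60, SE 0.407, and -1.88, SE 0.406) and not in AsPC-1 (-0.55, SE 0.348, and -0.83, SE 0.432); the JUNB call was lost without DMSO 2.1 or DMSO 2.2 (edgeR adjusted p = 0.0513 and 0.0521), and the difference between lines was not tested.

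Genes with a high labelled share tended to be those that NVP-2 lowered most on the relative scale. In AsPC-1 the share was taken from the 12 h DMSO libraries, which are not in the NVP-2 comparison, and the 218 genes were split at its median of 14.4%. The 109 genes above it had a median log2 fold change of -0.90, and 41 were called lower. The 109 below it had a median of -0.06, and 11 were called lower. Over the 218 genes Pearson's r was -0.43 and Spearman's rho -0.50, and over the 8428 genes at that NEG level they were -0.49 and -0.48. EPHA2, with the highest share, was at -1.30 (SE 0.314), LIF at -0.70 (SE 0.305, not called), and CTSD stood at the opposite corner.

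**Figure D5:**
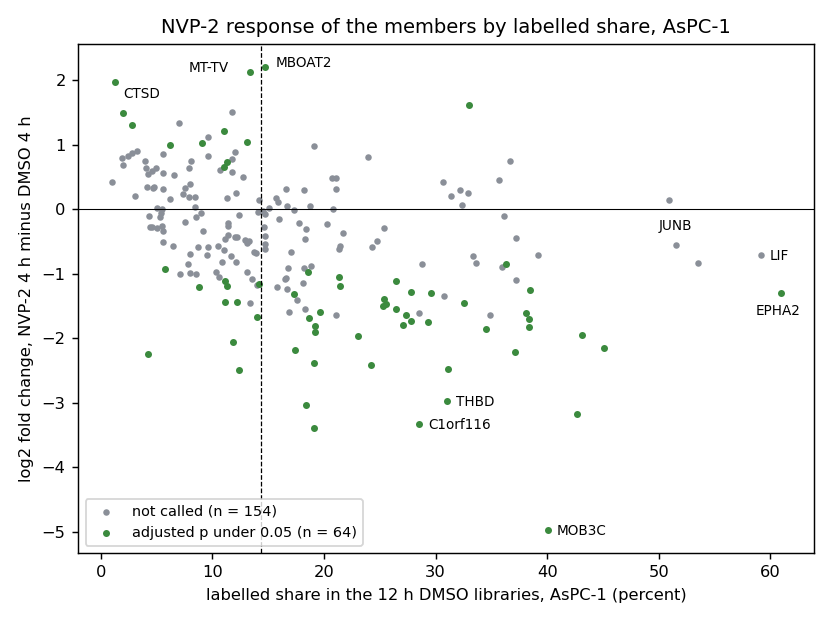
Log2 fold change after NVP-2 in AsPC-1 (y axis, against 4 h DMSO) by labelled share in the 12 h DMSO libraries (x axis, percent) for the 218 genes; green points passed an adjusted p under 0.05 in edgeR's test (64 genes) and the dashed line marks the median share of 14.4%. Most green points below 0 lie right of the line, while CTSD, MT-TV and MBOAT2 stand high at or left of about that share.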

How the data were processed

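The authors labelled cells with 4sU for 2 h, alkylated the RNA, made QuantSeq 3′ end libraries and, with slamdunk at its default settings, mapped the reads to hg38 and counted them in 3′UTR exons of GENCODE v44, with the exons of a gene added up. As deposited, the values are raw read counts, in 1 table of T>C reads and 1 of all reads for each line; the strand setting and the slamdunk version are not given in the sources used here. The tables held 18 empty unnamed columns and 0 unnamed columns with values. The all-reads column of AsPC-1 dTAG 3.1 repeated the T>C column of DMSO 12 h replicate 2 (total 13787208) and was left out. For 20 of the 218 genes in AsPC-1 and 26 in T3M-4 every T>C count was a multiple of 1 whole number (up to 9). Reads of these genes may have been counted more than once. Ratios of such counts are then unaffected, but their CPM are raised. This bears on the floor of 5 CPM and on differences of log2(CPM + 1) at low levels. The counting error is also larger than the counts imply.

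Members, function lists and tests were chosen with earlier results of these data known. Levels printed per library are T>C CPM with TMM factors over all libraries of a line and a pseudocount of 1 CPM on the log scale. Each comparison with DMSO was fitted alone with edgeR 4.0.16 (filterByExpr, TMM, glmQLFit, glmQLFTest) in R 4.3.3, and p-values were adjusted over all genes tested (Benjamini-Hochberg, 0.05); all 218 genes passed the count filter in every comparison. SE is the absolute log2 fold change over the root of the F statistic. CB-6644 and NVP-2 share the 4 h DMSO libraries of each line, so these comparisons are not independent and were not set against each other. Non-overlap counts use the scaling of each comparison; SH3BGRL3 at 12 h overlaps slightly on that of the whole line. Genes were named by fixed rules: the 12 lowest mean dTAG differences, those nearest the limit, every gene called after CB-6644 (there was none) and the 4 smallest p-values per CB-6644 comparison, the 3 lowest and 3 highest NVP-2 values per line, the 3 highest and 3 lowest labelled shares, and the 3 highest NEG levels per list. Other named genes were chosen after their values were seen. One gene that these rules name is not reported here. DESeq2 1.42.0 was run as an alternative. The scripts were tested on simulated data.

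Same-numbered libraries deviated together, with every correlation above 0.1, in some comparisons. These comparisons were dTAG in AsPC-1 (0.24 to 0.643) and T3M-4 (0.38 to 0.673), CB-6644 at 12 h (0.148 to 0.764) and CB-6644 in T3M-4 (0.204 to 0.557). In that order, the same-numbered control was the best match for 5 of 10, 4 of 4, 2 of 4 and 1 of 4 treated libraries. The numbers are thus not shown to mark pairs in each comparison. This pairing comes from the data and the shared numbers alone.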

Additional observations from a re-analysis of the deposited data

Results flagged for a closer look

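Of 122 groups of 4 to 10 libraries tested by Dixon's criterion, 8 had 1 library far from the rest, where about 1 in 20 would be flagged by chance. The median labelled share of the 218 genes was 15.591% in CB-6644 12 h replicate 2 of AsPC-1, against 13.958 to 14.177% in the others. CDA was at 19.929 CPM in dTAG 3.3 of AsPC-1 (others 3.52 to 11.857), and LAMA3 at 20.755 in dTAG 1.1 of T3M-4 (others 33.454 to 34.197). In 4 h DMSO libraries of AsPC-1, FGF19 was at 134.06 CPM in 1.1 (others 50.987 to 66.452) and AVPI1 at 21.958 in 2.1 (others 6.41 to 10.448). In NVP-2 libraries of AsPC-1, MOB3C was at 1.8902 CPM in 2.2 (others 0) and CTSD at 26.846 in 1.1 (others 137.35 to 160.14). MBOAT2 was at 14.32 CPM in DMSO 1.1 of T3M-4 (others 11.822 to 12.141), a small gap that stands out only because the other 3 are so close. No source for any of these libraries was tested.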

How the results depend on the processing

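The number of chosen genes lay between 177 (NEG floor of 10 CPM) and 234 over the alternatives; leaving out 1 library gave 213 to 234, of which 199 to 214 were among the 218. The replicate block leaves the number at 218. CB-6644 called 0 of the 218 genes under every alternative run. Its median in AsPC-1 at 4 h (-0.19) was -0.41 with library sizes from all reads, when all genes were at -0.23, -0.035 when all reads were tested in place of T>C reads, and -0.14 in experiment 2 alone; leaving out 1 library gave -0.23 to -0.17, and without both libraries numbered 1.2 it was -0.18. With a replicate block it was -0.21, at 12 h -0.14 and in T3M-4 -0.04, with 0 calls in each; for the difference between lines, a block within each line gave 0 calls and 17 of the 218 at an unadjusted p under 0.05 (816 of all 13963 genes), against 6 (511) without it. In T3M-4 leaving out 1 library moved the median between -0.12 and 0.05, and it was above 0 without CB-6644 1.1, DMSO 2.1 or DMSO 2.2.

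For NVP-2, library sizes from all reads gave 214 lower calls among the 218 and a median of -3.49 in AsPC-1, and 204 and -3.31 in T3M-4. Over all genes tested there were 10650 of 11498 and 10526 of 12242 lower calls. By construction this setting keeps the loss of T>C reads that CPM remove. MBOAT2, MT-TV, CTSD and ITGB4 then stood at -0.89, -0.85, -1.10 and -2.005 in AsPC-1, and MT-TV, MBOAT2 and ITGB4 at -0.13, -0.31 and -1.79 in T3M-4. Tested on all reads, 34 genes were lower in AsPC-1 (median -0.20, against 0.056 over all genes) and 17 in T3M-4 (0.016, against 0.058). SEMA3B was at 0.36 in AsPC-1 under that setting. Leaving out 1 library gave 40 to 56 and 37 to 59 calls, with medians of -0.58 to -0.36 and -0.61 to -0.36. Numbered pairs did not all deviate together under NVP-2 in T3M-4 (0.084 to 0.472) or CB-6644 at 4 h in AsPC-1 (-0.039 to 0.478). For NVP-2 in T3M-4 the replicate block gave 60 lower calls and a median of -0.60. Of all 12242 genes, 1638 were then lower, with a median of -0.36. The members' gap to all genes was thus -0.24, against -0.31 in the main fit. Experiment 2 alone gave -0.65, against -0.26 over all genes. Over the 118 protein-coding members that share exon sequence with no other gene, an alternative chosen after seeing the data, the T3M-4 median was -0.59, against -0.12 over all genes. The cause of these shifts was not tested. A replicate block for NVP-2 in AsPC-1, added after seeing the data, gave 48 lower calls (45 of them among the 52) and a median of -0.50. Of all 11498 genes, 1431 were then lower, with a median of -0.17. The members' gap to all genes was thus -0.33, against -0.42 in the main fit. The DMSO control of NVP-2 in AsPC-1 belongs to another batch, so the shared numbers may not mark pairs. MOB3C in AsPC-1 was at -9.66 without NVP-2 2.2, when no NVP-2 library held a read of it.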
